A study of Mus musculus with 12 samples.

Results

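The comparison described here set 3 RNA-seq libraries of Sox9 Sublow cells against 3 libraries of Sox9 Negative cells, 6 of the 12 libraries of a study of mouse intestinal epithelium. All cells came from the C57Bl/6 strain, carried a Sox9-GFP reporter (green fluorescent protein that follows the Sox9 gene), and were sorted into populations by the strength of that reporter. Sublow cells carry a very weak reporter signal and Negative cells none; the populations with more reporter, Sox9 Low and Sox9 High, have 3 libraries each and enter here for the shared estimate of spread and for side-by-side levels. Each library was made from 12000 cells by ribosomal RNA depletion of total RNA and sequenced from 1 end, and the replicates are lettered A, B and C. The labels name no age, sex, treatment or intestinal segment for these cells, and they do not say whether the letters stand for separate animals. The p-values therefore measure a spread between libraries, pooled over all 12, which may be partly technical. Of 30265 gene symbols in the table, the 16577 that reached a value of 10 in 3 or more of the 12 libraries were compared. Values are read counts divided by a size factor of their library, so they are comparable between libraries for 1 gene but not between genes, since they are not scaled to gene length.

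Sox9 is a transcription factor of the crypt, the pocket at the base of the intestinal wall where stem cells and their dividing daughters lie. In work on such reporters a low signal has been used to enrich stem cells, a weaker one to enrich the rapidly dividing progenitors that descend from them, and absence of signal to enrich differentiated villus cells, most of them absorptive enterocytes. Progenitors choose between an absorptive and a secretory fate under Notch signalling, and the secretory branch yields goblet, Paneth, enteroendocrine and tuft cells. In sorted bulk samples, fewer cells of a type and less RNA per cell cannot be told apart.

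Sox9 itself was measured at 1955, 1259 and 3039 in Sublow libraries A, B and C and at 703, 383 and 725 in Negative libraries A, B and C (log2 difference 1.75 ± 0.30 SE, adjusted p = 0.00335). Every Sublow library lay above every Negative library, so the RNA follows the sort order of the labels. The Low and High libraries averaged 6601 ± 921 and 20262 ± 1220.2 (SD, n = 3 each). Throughout, each log2 difference is Sublow minus Negative on the log2(value + 1) scale, its error is the standard error, and each adjusted p is from limma's moderated test of 12 libraries in 1 fit, adjusted by the Benjamini-Hochberg method over the 16577 genes. A gene is said to have risen or fallen in Sublow where that adjusted p was below 0.05, and sizes given alone are log2 differences.

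Depth ran between 14241434 and 17046944 reads in Sublow libraries and between 13390477 and 16520656 reads in Negative libraries. A count of 3 reads, the limit that a value of 0 allows, corresponds to values of 2.64 to 3.35 in Sublow and 3.17 to 4.61 in Negative libraries, and covers counting error only. Mitochondrially encoded genes took 3.10%, 3.98% and 3.46% of the summed values in Sublow libraries and 4.37%, 5.08% and 4.19% in Negative libraries. Epithelial markers were high in both: the adhesion molecule Epcam stood at 17571, 21771 and 21490.2 in Sublow and 23137, 28985 and 25076 in Negative libraries. Of 8 epithelial markers 1 rose, the keratin Krt18, and none fell. Of 11 T cell markers above the filter, Cd8a fell, at 54.1, 43.6 and 36 in Sublow and 78.1, 80.0 and 67.3 in Negative libraries. The summed level of that T cell list was 765, 736 and 526 in Sublow and 789, 904 and 931 in Negative libraries. The B cell, stromal, endothelial, neural and erythrocyte lists had 1, 7, 5, 6 and 1 members above the filter, and limma called none of those 20 genes. Of 6 myeloid markers above the filter Cd68 and Cd14 rose and Lyz2 fell, the last to 2.04, 2.24 and 4.39 in Sublow, against 14.8, 32.3 and 32 in Negative libraries; Lyz2 is a near-identical copy of Lyz1, described below among Paneth genes. Defining markers such as Trac and Nkg7 of T cells, Cd79a and Jchain of B cells, Col3a1 and Dcn of stroma and C1qa of macrophages were under the filter. Their part in any result was not tested.

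Across all genes, 4597 (27.7%) differed between Sublow and Negative: 2500 were higher in Sublow (15.1%) and 2097 were lower (12.7%). The median log2 difference of all tested genes was -0.04. The rises were the larger changes, with 1679 genes at least 2-fold higher against 663 at least 2-fold lower, and 72 against 11 at 8-fold. All 3 Sublow libraries lay above all 3 Negative libraries for 3137 genes (18.9%) and below them for 3457 genes (20.9%). Counts of called or non-overlapping members of the lists below are to be read beside these shares of all tested genes. These counts lean on the spread estimated over all 12 libraries: a fit of the 6 libraries alone called 41 genes higher and 5 lower, although 5315 genes had an unadjusted p below 0.05 there, against 6835 in the fit of 12. With the letters A, B and C as a replicate block, those 6 libraries gave 1863 higher and 1830 lower. That fit was added after the data were seen. The split also depends on scaling. With every library brought to the same total, the median of all genes moved to 0.23, and 3829 genes were called higher against 610 lower (86.3% of the calls, in place of 54.4%).

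**Figure D1:**
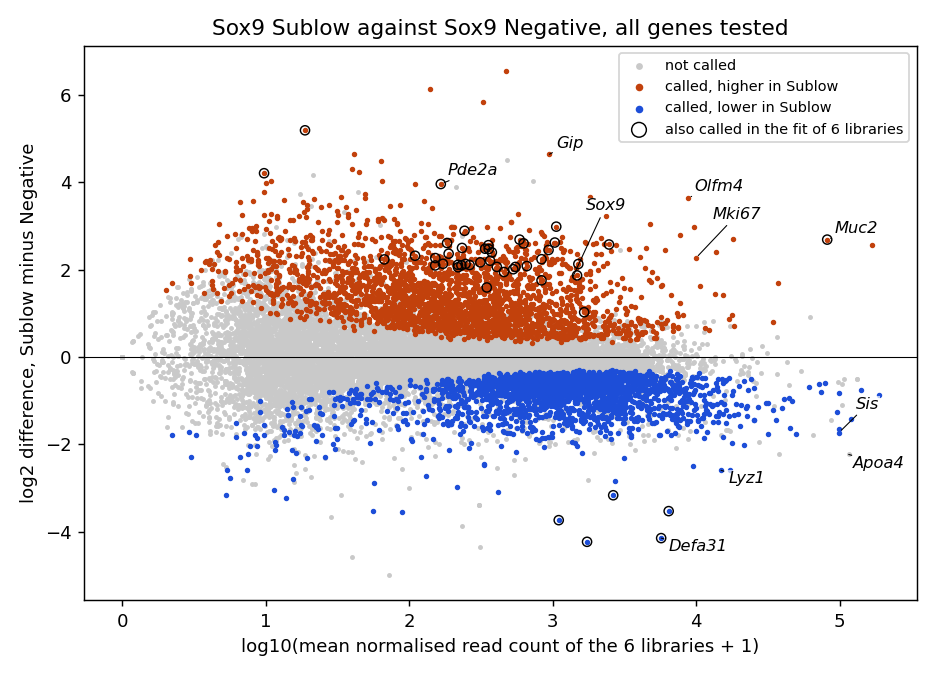
Log2 difference (Sublow minus Negative, vertical axis) against the log10 of the mean value over the 6 libraries plus 1 (horizontal axis) for the 16577 tested genes, with genes called higher in Sublow in red, genes called lower in blue, and the 46 genes also called in a fit of the 6 libraries alone circled. Most of the called genes beyond a difference of 2 lie above the line at 0, and 5 circled genes lie below it.

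Genes of mitosis rose almost without exception. Of 34 listed members, 33 rose in Sublow and none fell, with a median log2 difference of 2.15; the remaining gene, Pttg1 (securin, which holds back sister separation), stood at 96, 101 and 82.6 in Sublow and 121, 109 and 75.3 in Negative libraries. Mki67, the Ki-67 antigen of cycling cells, was at 17530.0, 11832 and 18764 in Sublow and 6131, 1572 and 3679 in Negative libraries (log2 difference 2.26 ± 0.40, adjusted p = 0.00419). Ccnb1, the cyclin that drives entry into mitosis, was at 513, 389 and 728 in Sublow and 211, 64.6 and 141 in Negative libraries (log2 difference 2.07 ± 0.39, adjusted p = 0.00489). In each of these Sublow stood wholly above Negative, Sublow B was the lowest Sublow library and Negative A the highest Negative one. The largest rises of the list were those of the spindle checkpoint kinases Ttk and Bub1 (3.05 and 2.98), of Ndc80, which ties kinetochores to microtubules (2.69), and of Nusap1, a spindle protein (2.61). Bub1 was at 379, 236 and 440.2 in Sublow and 84.5, 12.3 and 69.6 in Negative libraries. The summed value of the 34 genes was 53772, 38946 and 67425 in Sublow and 20231, 6028 and 12715 in Negative libraries, so the Negative population still held mitotic transcripts, most of all in library A. Low libraries A, B and C summed to 71163, 70524 and 64615, and for 2 of the 34 genes the Sublow mean was above the Low mean. That comparison with Low is given without a test.

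The genes that copy DNA moved the same way. Of 34 members of the S phase list, 30 rose, none fell and the median log2 difference was 1.83. The Sublow mean was above the Low mean for 4 of the 34. Mcm2, a subunit of the replicative helicase, was at 988, 546 and 1543 in Sublow and 359, 78.4 and 138 in Negative libraries (log2 difference 2.57 ± 0.47, adjusted p = 0.00465), and its partner subunit Mcm3 changed by 2.76. Uhrf1, which carries DNA methylation across replication, was at 1442, 846 and 2034 in Sublow and 474, 66.1 and 225 in Negative libraries (log2 difference 2.81 ± 0.61, adjusted p = 0.00875). Within Negative both genes were lowest in library B and highest in A. Pcna, the sliding clamp, was at 766, 771 and 1645 in Sublow and 825, 631 and 760.0 in Negative libraries, overlapping, and was not called (log2 difference 0.43 ± 0.27, adjusted p = 0.255). Pole, the leading-strand polymerase, rose by 2.49 and Mcm5 by 2.53. Replication-dependent histone genes, picked by symbol after the values were seen, gave 56 rises and no falls of 65 tested, with a median of 2.18.

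The supply chain of replication followed. All 15 called genes of 20 in nucleotide synthesis rose (median 1.44), among them Cad, which starts pyrimidine synthesis, at 835, 266 and 689 in Sublow and 119, 16.9 and 147 in Negative libraries (log2 difference 2.97 ± 0.72, adjusted p = 0.0132). Ppat, which commits to purine synthesis, was at 214, 127 and 500.0 in Sublow and 57, 18.5 and 37.7 in Negative libraries (log2 difference 2.77 ± 0.48, adjusted p = 0.00349). These enzymes were again lowest in Negative B. Ctps (CTP synthase) and Impdh2 (guanine nucleotide synthesis) rose by 2.35 and 2.04. In homologous recombination and Fanconi repair, 18 of 20 genes rose and none fell (median 1.64). Brca1, which directs resection and strand exchange at DNA breaks, was at 793, 523 and 915 in Sublow and 307, 78.4 and 168 in Negative libraries (log2 difference 2.18 ± 0.40, adjusted p = 0.0046). Rad54b, a DNA translocase of recombination, rose by 2.25 and Fancd2, of the Fanconi pathway, by 2.23. Leaving out any 1 of the 12 libraries left at least 32 of the mitosis genes called, 25 of the S phase genes, 10 of the nucleotide genes and 16 of the repair genes, but with the 6 libraries alone none of these genes was called. With the letters A, B and C as a replicate block, those 6 libraries called 33, 28, 14 and 17 of them higher. That fit was added after the data were seen.

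Regulators of the entry into the cycle were mixed. Of 14 G1 genes 5 rose and 2 fell (median 0.20), against 15.1% and 12.7% of all genes tested, so the falls were near the general share. Ccnd1, the cyclin that couples growth signals to the cycle, was at 1307, 737 and 1726 in Sublow and 524, 118 and 374 in Negative libraries (log2 difference 2.05 ± 0.50, adjusted p = 0.0133); Ccnd2, Cdk6 and Cdk4 rose with it, by 1.82, 1.82 and 1.27. Cdkn1a, the p21 inhibitor of cyclin-dependent kinases, fell to 583, 972 and 627 in Sublow, against 950.4, 1458 and 1299.7 in Negative libraries (log2 difference -0.78 ± 0.21, adjusted p = 0.0204); Sublow B overlapped Negative A. Rb1, the retinoblastoma gatekeeper, fell by 0.70 on the log2 scale. Without Sublow C, 3 of the 5 rises and neither fall were called; neither fall was called without Negative B or with equal totals, and 1 without Sublow A or Negative C.

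Promoter sequences are shown for these 2 programmes because mitotic and replication genes are classically controlled through different promoter elements. Mitotic genes are known for a cell cycle homology region (CHR, here TTTGAA) near CCAAT boxes, S phase genes for E2F sites (here TTTGGCGC or TTTCCCGC). Windows of 300 bases around the start, from RefSeq on build GRCm38.p6, were found for 11675 of the 16577 tested genes, and genes with an exact match on either strand in any of their windows were counted. The CHR was present in 20 of 28 mitosis genes with a window (71.4%) and 3 of 28 S phase genes, against 15% of all matched genes; it was also present in 12 of 31 drug metabolism genes (38.7%). A CCAAT box was present in 75% of the mitosis genes, 57.1% of the S phase genes and 57.9% of the brush border hydrolases, and in 42.7% of all. Both elements together were present in 18 of the mitosis genes, 2 of the S phase genes and 4 of the drug metabolism genes, and in 6.17% of all. An E2F match was present in 9 of 28 S phase genes and 0 of 28 mitosis genes, against 3.01% of all. Matches of different motifs may overlap, a match is a description and not a binding site, and no relation to expression was tested. The 150 bases before the start of 4 mitosis genes follow, 5′ to 3′ on the gene's strand, with CHR and CCAAT matches of either strand in capitals (TTCAAA and ATTGG on the reverse): Cdk1, the mitotic kinase (chr10:69352913-69353062, minus strand); Top2a, the topoisomerase that untangles chromosomes (chr11:99024190-99024339, minus strand); Ube2c and Cdc20, parts of the machinery that degrades cyclin B (chr2:164769779-164769928, plus strand and chr4:118437344-118437493, minus strand).
Cdk1: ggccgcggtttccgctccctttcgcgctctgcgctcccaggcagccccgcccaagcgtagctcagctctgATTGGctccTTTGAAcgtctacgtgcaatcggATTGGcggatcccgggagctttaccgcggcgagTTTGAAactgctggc
Top2a: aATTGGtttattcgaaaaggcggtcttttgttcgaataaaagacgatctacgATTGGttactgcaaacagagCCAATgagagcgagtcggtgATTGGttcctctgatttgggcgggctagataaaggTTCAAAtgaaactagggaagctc
Ube2c: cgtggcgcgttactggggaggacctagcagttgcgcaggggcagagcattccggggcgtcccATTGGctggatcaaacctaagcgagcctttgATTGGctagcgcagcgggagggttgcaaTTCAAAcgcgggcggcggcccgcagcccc
Cdc20: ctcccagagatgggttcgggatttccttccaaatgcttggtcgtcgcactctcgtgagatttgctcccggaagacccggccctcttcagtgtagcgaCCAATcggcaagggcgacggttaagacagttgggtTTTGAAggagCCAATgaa
The same stretch of 2 S phase genes follows with E2F matches in capitals (GCGGGAAA on the reverse): Mcm6, a helicase subunit (chr1:128359706-128359855, minus strand), and Cdc6, which loads that helicase (chr11:98908001-98908150, plus strand).
Mcm6: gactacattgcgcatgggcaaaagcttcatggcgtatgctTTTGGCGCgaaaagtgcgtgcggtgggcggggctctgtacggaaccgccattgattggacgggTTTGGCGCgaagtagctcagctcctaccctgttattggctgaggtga
Cdc6: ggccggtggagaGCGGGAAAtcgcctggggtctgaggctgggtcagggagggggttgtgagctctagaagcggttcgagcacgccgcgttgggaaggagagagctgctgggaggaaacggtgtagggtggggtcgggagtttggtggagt
Their own levels all rose in Sublow: Cdk1 changed by 2.25, Top2a by 2.48, Ube2c by 2.02, Cdc20 by 1.74, Mcm6 by 1.83 and Cdc6 by 1.73. Top2a, for example, was at 7468, 5136 and 9619 in Sublow and 2460.5, 587 and 1459 in Negative libraries. These 6 genes were picked for their promoters, not for their change.

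Growth machinery was higher in Sublow as well. Of 36 ribosome biogenesis genes 33 rose and none fell (median 1.33), and for 3 of the 36 the Sublow mean was above the Low mean. Myc, the transcription factor that drives this programme, was at 469.7, 339 and 1463 in Sublow and 137, 29.2 and 119.8 in Negative libraries (log2 difference 2.95 ± 0.58, adjusted p = 0.00565). Sublow C held far more Myc than the other Sublow libraries. Ncl, the nucleolar protein nucleolin, changed by 1.41 (adjusted p = 0.0062), Gar1, a snoRNP protein, by 1.98, Utp20, a processing factor of the small subunit, by 1.84, and Polr1b, a subunit of RNA polymerase I, by 1.82. With the 6 libraries alone none of the 36 was called, and with the replicate block added to that fit 32 were.

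Stem cell genes were not absent from Sublow. Of 23 crypt base stem cell genes 19 rose relative to Negative, none fell, and the median was 1.52. The number called higher was 15 without Negative B, 16 without Sublow C, 17 without Sublow A and 22 without Sublow B. With the 6 libraries alone none was called, and with the replicate block added to that fit 18 were. Lgr5, the R-spondin receptor that marks these cells, was at 264, 115 and 519 in Sublow and 92.9, 49.2 and 59.3 in Negative libraries (log2 difference 1.94 ± 0.44, adjusted p = 0.0104). Olfm4, a secreted glycoprotein of the crypt base, was at 13101, 5432 and 28492 in Sublow and 3733, 218 and 1271 in Negative libraries (log2 difference 3.64 ± 0.86, adjusted p = 0.0117). Both were highest in Sublow C and lowest, within Sublow, in B. Slc12a2, the basolateral chloride importer, and Sox4, a transcription factor of crypt progenitors, rose by 2.98 and 2.86, and Smoc2, a matricellular protein, by 2.36. Sublow nonetheless sat below Low: for all 23 genes the Sublow mean was below the Low mean, which was 2476 ± 769 for Lgr5 and 60843 ± 9012 for Olfm4 (SD, n = 3 each). Of 15 Notch pathway genes above the filter 7 rose and none fell (median 0.55). The receptor Notch1 was at 1014, 550.1 and 1780.3 in Sublow and 508, 275 and 436 in Negative libraries (log2 difference 1.34 ± 0.35, adjusted p = 0.0175), and Lfng, a sugar transferase that modifies Notch, was at 207, 106 and 349.7 in Sublow and 56, 1.54 and 32 in Negative libraries (log2 difference 3.56 ± 0.86, adjusted p = 0.0132). Notch2 and the ligand Dll4 rose by 1.48 and 1.13. Hes1, the Notch target that represses the secretory fate, did not overlap (559.5, 496 and 902 in Sublow and 395, 364 and 278 in Negative libraries) but was not called (log2 difference 0.88 ± 0.32, adjusted p = 0.0574). Without Sublow C 3 Notch genes were called, and without Negative B 4.

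The secretory branch was higher in Sublow. Of 15 secretory progenitor genes 12 rose and none fell (median 2.19). Atoh1, the master regulator of the branch, was at 495, 509.8 and 896 in Sublow and 134, 84.6 and 135 in Negative libraries (log2 difference 2.39 ± 0.29, adjusted p = 0.000892). Its downstream factor Spdef, which promotes goblet maturation, was at 326, 467 and 927 in Sublow and 100.3, 63.1 and 121 in Negative libraries (log2 difference 2.50 ± 0.37, adjusted p = 0.00207). Every Sublow library stood far above every Negative library for both. Creb3l1, a membrane-bound factor of secretory cells, rose by 2.62 and Foxa3 by 2.26, while Dll1, the ligand presented by secretory precursors, rose by 0.55 (adjusted p = 0.0464).

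All 21 goblet cell genes above the filter rose in Sublow, with a median of 2.46, the largest median of the 28 lists. Muc2, the gel-forming mucin of the mucus layer, was at 107602, 164377 and 151048 in Sublow and 23836, 14602 and 28845 in Negative libraries (log2 difference 2.69 ± 0.38, adjusted p = 0.00167). Clca1, a secreted protease of mucus, was at 17743, 30443 and 45889.9 in Sublow and 5159.6, 2908 and 6169 in Negative libraries (log2 difference 2.69 ± 0.45, adjusted p = 0.00316). For both the lowest Sublow library was A; for Mki67, Ccnb1 and Mcm2 it was B. Agr2, a disulfide isomerase needed for mucin folding, was at 5351, 6078 and 14123 in Sublow and 1441, 519.8 and 1085 in Negative libraries (log2 difference 3.05 ± 0.41, adjusted p = 0.00129). Bcas1 rose by 2.98 and Rep15, a Rab15 effector, by 2.67. For all 21 genes the Sublow mean was also above the Low mean, a comparison given without a test; the list summed to 363281, 592425 and 636729 in Sublow, 100994, 56063 and 118312 in Negative and 156752, 510737 and 182134 in Low libraries, where Low B stands apart. With the 6 libraries alone 4 goblet genes (Muc2, Bcas1, Ccl9 and Capn8) and 2 secretory progenitor genes (Atoh1 and Creb3l1) remained called. The 41 genes called higher there were picked by that call after the fact. They also included Mlph, which links Rab27 vesicles to myosin, at 2081, 2114 and 2467 in Sublow and 1153, 1093 and 1024 in Negative libraries, Rab3d, a granule GTPase, at 1113, 1145 and 1614 in Sublow and 415, 317 and 406 in Negative libraries, and Scnn1a, a subunit of the epithelial sodium channel, at 599, 709.9 and 871 in Sublow and 185, 178 and 195 in Negative libraries. Their Sublow libraries lay close together, which a call in the 6 libraries alone favours. For 24 of the 41 the Sublow mean was above the Low mean, against 7778 of all 16577 tested genes. Picking genes that are high in Sublow favours that order, so the share is not read as a trait of these genes.

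Enteroendocrine genes rose too. Of 24 members 19 rose and none fell (median 2.35). The number called higher was 14 without Sublow A or C, 15 without Negative B, 16 without Negative C and 23 without Sublow B. With the 6 libraries alone none was called, and with the replicate block added to that fit 14 were. Chgb, a granin of hormone granules, was at 4462, 1169 and 4189 in Sublow and 626, 44.6 and 381 in Negative libraries (log2 difference 3.66 ± 0.80, adjusted p = 0.00869). Gip, the incretin of K cells, was at 1600.0, 851 and 2680.1 in Sublow and 461, 4.61 and 90.1 in Negative libraries (log2 difference 4.64 ± 1.11, adjusted p = 0.0126). Negative A held far more of both than Negative B did, and Sublow B held the least within Sublow. Chga, the other main granin, and Sct, the hormone secretin, rose by 1.85 and 1.67. Somatostatin, Sst, was at 1512, 591 and 1503 in Sublow and 583, 1.54 and 205 in Negative libraries without overlap but was not called (log2 difference 4.04 ± 1.44, adjusted p = 0.0548). No member had a Sublow mean above the Low mean; for Chgb the Low and High libraries averaged 39154 ± 13668 and 285703 ± 75804 (SD, n = 3 each). Tuft cell genes were low in both populations, with 6 of 20 higher, 1 lower and a median of 0.82. The list summed to 849, 395 and 791 in Sublow and 396, 335 and 518 in Negative libraries, and Dclk1, its best known marker, was at 154, 38 and 81.7 in Sublow and 33.8, 32.3 and 66.2 in Negative libraries (log2 difference 0.90 ± 0.41, adjusted p = 0.123). The number of tuft genes called higher was 2 without Sublow C, 3 without Sublow A or Negative B, and 10 without Sublow B.

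Paneth cell genes went the other way. These crypt base cells secrete lysozyme and alpha-defensins, and Sox9 is known to be needed for their formation, yet of 16 Paneth genes 5 fell in Sublow and 3 rose (median -1.45). Lyz1, the Paneth lysozyme, fell to 4873, 3328 and 3792 in Sublow, against 13454, 28211 and 35685 in Negative libraries (log2 difference -2.59 ± 0.75, adjusted p = 0.0262). Defa24, an alpha-defensin, fell to 5068, 3653 and 5017 in Sublow, against 15258, 32608 and 41486 in Negative libraries (log2 difference -2.60 ± 0.74, adjusted p = 0.0242). In both the Sublow libraries lay close together, and Negative A held less than Negative B or C. Itln1, the lectin intelectin-1, was at 4282, 3072 and 3449 in Sublow and 8211, 15109 and 18094 in Negative libraries and was not called (log2 difference -1.88 ± 0.69, adjusted p = 0.0598). The 3 that rose were Kit, a receptor kinase (1.90), Cd24a, a surface protein of crypt base cells (1.33), and the Wnt ligand Wnt3 (1.06). The number of Paneth genes called lower was 0 without Negative B, 1 without Sublow C, 1 without Negative C, 3 without Sublow A and 8 without High B; quantile scaling left 2, and 1 of the 3 rises was called without Negative B. Alpha-defensin genes are near-identical copies whose reads the counting could split, so values of single members are uncertain. Over the whole family 8 of 19 tested Defa genes fell, against 12.7% of all genes tested. In 13 of 19 every Sublow library lay below every Negative one, against 20.9% of all genes tested.

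The largest changes of named genes were picked by rule: the 12 called genes each way with the greatest log2 difference, among those whose 6 libraries averaged 100 or more and did not overlap. The rule passed over predicted genes (Gm and digits), RIKEN clones, and identifiers that begin with AC, AI, AL, AU, AW, BC, LOC or ENSMUS. It also passed over ribosomal protein symbols (Rpl or Rps and digits), microRNA genes and small structural RNAs. The 12 rises ran from 3.09 to 5.84. They comprised the enteroendocrine genes Gip and Chgb, the crypt genes Olfm4 and Cd44 (the hyaluronan receptor, a Wnt target, 919, 430.4 and 1341 in Sublow and 224, 27.7 and 134 in Negative libraries), the Notch modifier Lfng, the histone gene Hist1h2ai (3.23) and the histone chaperone Nap1l1 (3.27). The others were Gvin1, an interferon-inducible GTPase, Cd177, a surface glycoprotein best known from neutrophils (3.96), Pde2a, a cyclic nucleotide phosphodiesterase (3.96), Serpina1b, an antitrypsin (3.42), and Cnn3, an actin-binding calponin (3.10). Pde2a was at 288, 295 and 347 in Sublow and 27.5, 21.5 and 11.4 in Negative libraries (log2 difference 3.96 ± 0.27, adjusted p = 6.41e-05); it was the 1 rise of the 12 still called with the 6 libraries alone. Gvin1 was at 640.2, 517 and 511 in Sublow and 277, 0 and 2.28 in Negative libraries, so its size rests on how near to 0 Negative B and C were, and it belongs to a family of near-identical copies. Neither edgeR nor DESeq2 called Gvin1, nor did limma without Sublow A, Sublow C, Negative B or Negative C or with the 6 libraries alone. The predicted gene Gm14851, passed over by that rule, fell further than any of the 12 (-4.23), at 196, 124 and 166 in Sublow and 1559, 4032 and 4329 in Negative libraries. Of the 12 falls, 8 were alpha-defensins, from Defa29 (-2.47) to Defa31 (-4.15). Defa31 was at 603, 408 and 711 in Sublow and 5355, 12499 and 14592 in Negative libraries (log2 difference -4.15 ± 0.76, adjusted p = 0.00459). The rest were Lyz1, the unnamed identifier AY761184 (-3.17), the pentraxin Mptx2 (-3.09) and Pnliprp2, a pancreatic-type lipase, at 77.6, 102 and 108 in Sublow and 283, 652 and 780.5 in Negative libraries (log2 difference -2.45 ± 0.38, adjusted p = 0.00236). Mptx2, Lyz1, Pnliprp2 and Defa31 were each lowest, within Negative, in library A. With the 6 libraries alone 11 of these 12 rises and 8 of these 12 falls lost the call, and Gm14851 did not.

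**Figure D2:**
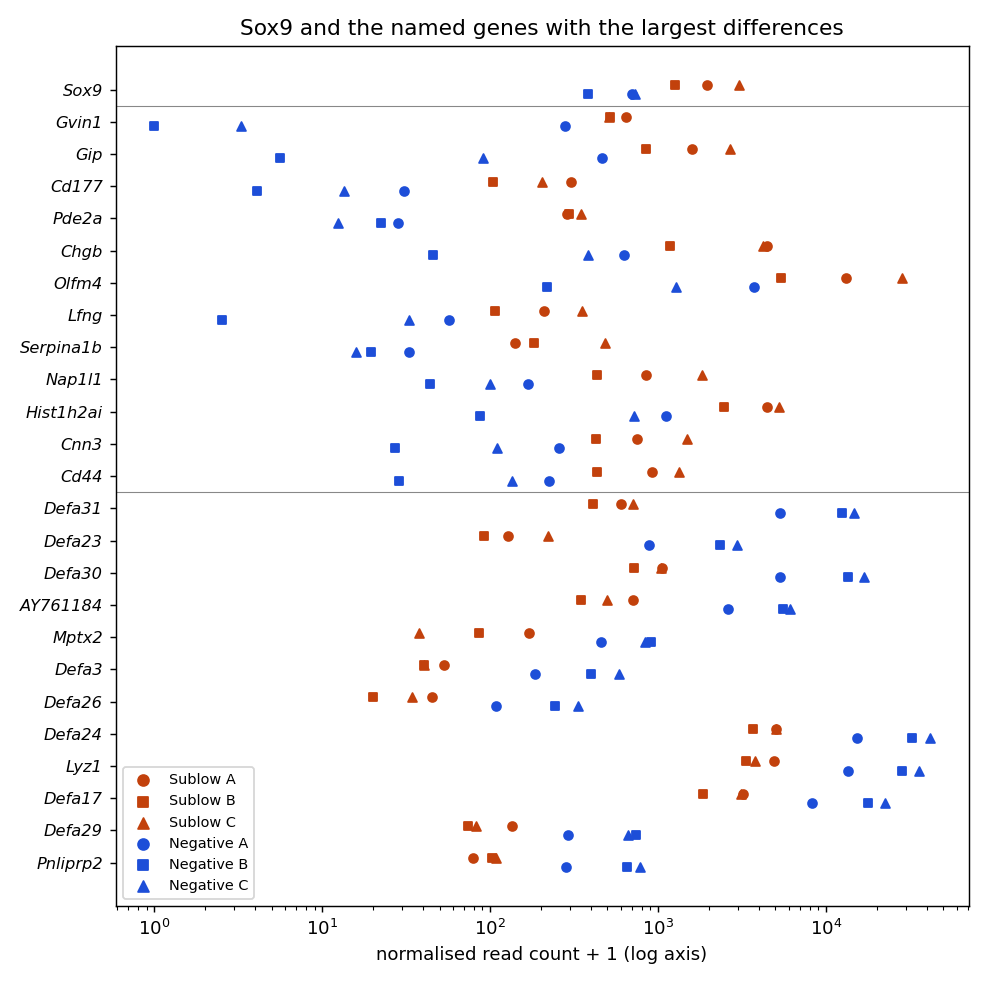
Values by library (log axis, value + 1) for Sox9 and the 12 rises and 12 falls that the rule picked; each gene has its 3 Sublow points and its 3 Negative points. The populations do not overlap for any of the 24, which the choice itself requires, and the 12 falls are mostly alpha-defensins.

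Absorptive genes fell. Among 23 brush border hydrolases, the enzymes that finish digestion on the cell surface, 9 fell and none rose (median -1.45). Sis, sucrase-isomaltase, fell to 42590.1, 89387 and 21066 in Sublow, against 107551, 164380.0 and 166459 in Negative libraries (log2 difference -1.73 ± 0.44, adjusted p = 0.0158). Lct, lactase, was at 16375, 38374 and 2607 in Sublow and 46738, 74132 and 48196 in Negative libraries, without overlap but not called (log2 difference -2.22 ± 0.79, adjusted p = 0.0545). The Sublow libraries differ strongly among themselves here: Sublow B held more Sis than A and C together, and Sublow C held the least of both genes. The peptidase Mme (neprilysin) fell, with a log2 difference of -1.83. Of 21 sugar, amino acid and peptide transporters 15 fell and none rose (median -1.5). Slc5a1, the sodium-glucose cotransporter, fell to 21625, 47085 and 9175 in Sublow, against 52655, 87931 and 79546 in Negative libraries (log2 difference -1.77 ± 0.46, adjusted p = 0.0175), and Slc15a1, the dipeptide carrier, to 2531, 5268 and 949.9 in Sublow, against 5891, 9947 and 8905 in Negative libraries (log2 difference -1.79 ± 0.50, adjusted p = 0.022). Slc2a2, the basolateral glucose exit, was at 3018, 7331 and 669 in Sublow and 7934, 13959 and 10380.4 in Negative libraries and was not called (log2 difference -2.09 ± 0.75, adjusted p = 0.0562). Within Sublow the order of the libraries was again B, A, C from high to low.

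Fat handling fell with sugar handling. Of 27 genes of lipid absorption and chylomicron assembly 22 fell and none rose (median -1.49). Apob, the structural protein of chylomicrons, fell to 55459, 96197 and 16363 in Sublow, against 118342, 177333 and 125541 in Negative libraries (log2 difference -1.64 ± 0.48, adjusted p = 0.0278). Mttp, which loads it with lipid, fell to 24982, 42108 and 8737 in Sublow, against 58238, 77114 and 60418 in Negative libraries (log2 difference -1.63 ± 0.48, adjusted p = 0.0282). Again Sublow B came nearest to Negative A and Sublow C lay lowest. Apoc3, an apolipoprotein, Fabp1, the fatty acid carrier, and Creb3l3, a regulator of apolipoprotein genes, fell with log2 differences of -2.20, -2.01 and -1.79. In drug and xenobiotic metabolism 23 of 32 genes fell and none rose (median -1.59). Cyp2b10, a cytochrome P450 induced by xenobiotics, fell to 1158, 3091 and 225 in Sublow, against 3656, 6702 and 4112 in Negative libraries (log2 difference -2.32 ± 0.80, adjusted p = 0.0484). Rbp2, the retinol carrier, and Cyp3a13 fell, with log2 differences of -1.97 and -1.78, and Cyp3a11 was at 1117, 2789 and 227 in Sublow and 2811, 4986 and 2558 in Negative libraries and was not called (log2 difference -1.89 ± 0.71, adjusted p = 0.0655). Cytochrome genes of these families are close copies, so their separate values are uncertain.

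The counts of absorptive calls moved with single libraries far more than the counts of proliferation calls. Falls over all genes moved too: without Negative B there were 325 in place of 2097, and 1404 rises in place of 2500. The loss of calls was thus not particular to absorptive genes. Leaving out Negative B left 1 of the 9 hydrolases called, 2 of the 15 transporters, 3 of the 22 lipid genes and 2 of the 23 drug metabolism genes. Leaving out Sublow C left 2, 7, 7 and 4 of them, leaving out Sublow A 3, 9, 11 and 4, and leaving out Negative C 4, 8, 13 and 8; leaving out Negative A left 15 drug metabolism genes. Leaving out Sublow B instead gave 21 hydrolases, and leaving out Low B 15. edgeR's quasi-likelihood test on the recovered reads called 5, 9, 10 and 9 genes of the 4 lists, quantile scaling left 1, 8, 10 and 8, and equal totals left 11 drug metabolism genes. With the 6 libraries alone none of the genes of these 4 lists was called. With the replicate block added to that fit, 11, 13, 24 and 27 were called lower. The direction stayed: every median remained below 0 in each of these settings.

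Promoters of these genes are known targets of HNF4 factors, and 2 with an exact match to such a site are shown. The site searched (CAAAGTCCA, either strand) was present in 2 of 19 hydrolase genes with a window, 3 of 31 drug metabolism genes, 1 of 19 transporter genes and 0 of 20 lipid genes, against 0.608% of all matched genes. Slc3a1, the heavy subunit of a cystine transporter (chr17:85028197-85028346, plus strand), and Cyp2c65, a cytochrome P450 (chr19:39060856-39061005, plus strand), carried it within the 150 bases before the start, in capitals here.
Slc3a1: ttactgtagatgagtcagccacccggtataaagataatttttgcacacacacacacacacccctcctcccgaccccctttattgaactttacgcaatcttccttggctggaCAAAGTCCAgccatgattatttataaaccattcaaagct
Cyp2c65: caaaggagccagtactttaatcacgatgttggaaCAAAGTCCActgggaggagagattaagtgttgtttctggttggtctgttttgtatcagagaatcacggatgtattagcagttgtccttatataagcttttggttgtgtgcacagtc
Slc3a1 was at 1276, 1917 and 830.4 in Sublow and 2340.1, 3242 and 3111 in Negative libraries (log2 difference -1.18 ± 0.33, adjusted p = 0.0222), and Cyp2c65 at 1696, 3830.3 and 946 in Sublow and 4056, 6780.2 and 4654 in Negative libraries (log2 difference -1.46 ± 0.41, adjusted p = 0.0229). Both were picked for the match.

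The structure that carries these enzymes fell as well. Of 20 genes of the brush border cytoskeleton and microvillus adhesion 15 fell and none rose (median -1.18). Vil1, the actin bundler villin, fell to 21491, 33207 and 10975 in Sublow, against 42012, 55526 and 42619 in Negative libraries (log2 difference -1.22 ± 0.32, adjusted p = 0.0181). Cdhr2, a cadherin that links microvillus tips, Pls1, the bundler plastin-1, Cobl, an actin nucleator, and Espn, espin, fell with log2 differences of -1.44, -1.44, -1.46 and -1.39. Without Negative B 2 of the 15 were called, without Sublow C 7, without Sublow A 9, with edgeR 8, with equal totals 9 and with quantile scaling 4. Of 23 ion and mineral transport genes above the filter 10 fell and 1 rose. The list is named for apical transport, but not every member is apical. Slc40a1, the iron exporter ferroportin, fell to 1376, 1061 and 475 in Sublow, against 1867, 2444 and 1933 in Negative libraries (log2 difference -1.22 ± 0.35, adjusted p = 0.0256); Slc12a2 was the rise. Without Negative B 2 of the 10 falls were called, without Sublow C 5, without Negative C 5, with equal totals 5 and with quantile scaling 3. The fit of the 6 libraries alone called no gene of the brush border or ion transport lists.

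Mitochondrial energy genes fell by less. Of 28 nuclear-encoded subunits of oxidative phosphorylation 21 fell and none rose (median -0.52). Sdhb, a subunit of succinate dehydrogenase, fell to 2549.5, 3168 and 2155 in Sublow, against 4339, 4878 and 4231 in Negative libraries (log2 difference -0.79 ± 0.14, adjusted p = 0.00438). Cox4i1, a cytochrome oxidase subunit, was at 3126, 3634 and 3753 in Sublow and 4593, 5293 and 4718 in Negative libraries (log2 difference -0.48 ± 0.13, adjusted p = 0.0213). With libraries scaled to equal totals 2 of the 21 were called, with quantile scaling 3, without Negative B 5 and without Sublow A 10. In fatty acid oxidation and ketogenesis 18 of 27 fell and none rose (median -0.58). Ppargc1a, a coactivator of mitochondrial genes, fell to 1617, 2929 and 797 in Sublow, against 3677, 5318 and 4422 in Negative libraries (adjusted p = 0.0175). Without Negative B 6 of the 18 were called, without Sublow A 9, without Sublow C 10, and with equal totals or quantile scaling 7. Neither mitochondrial list had a gene called with the 6 libraries alone.

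**Figure D3:**
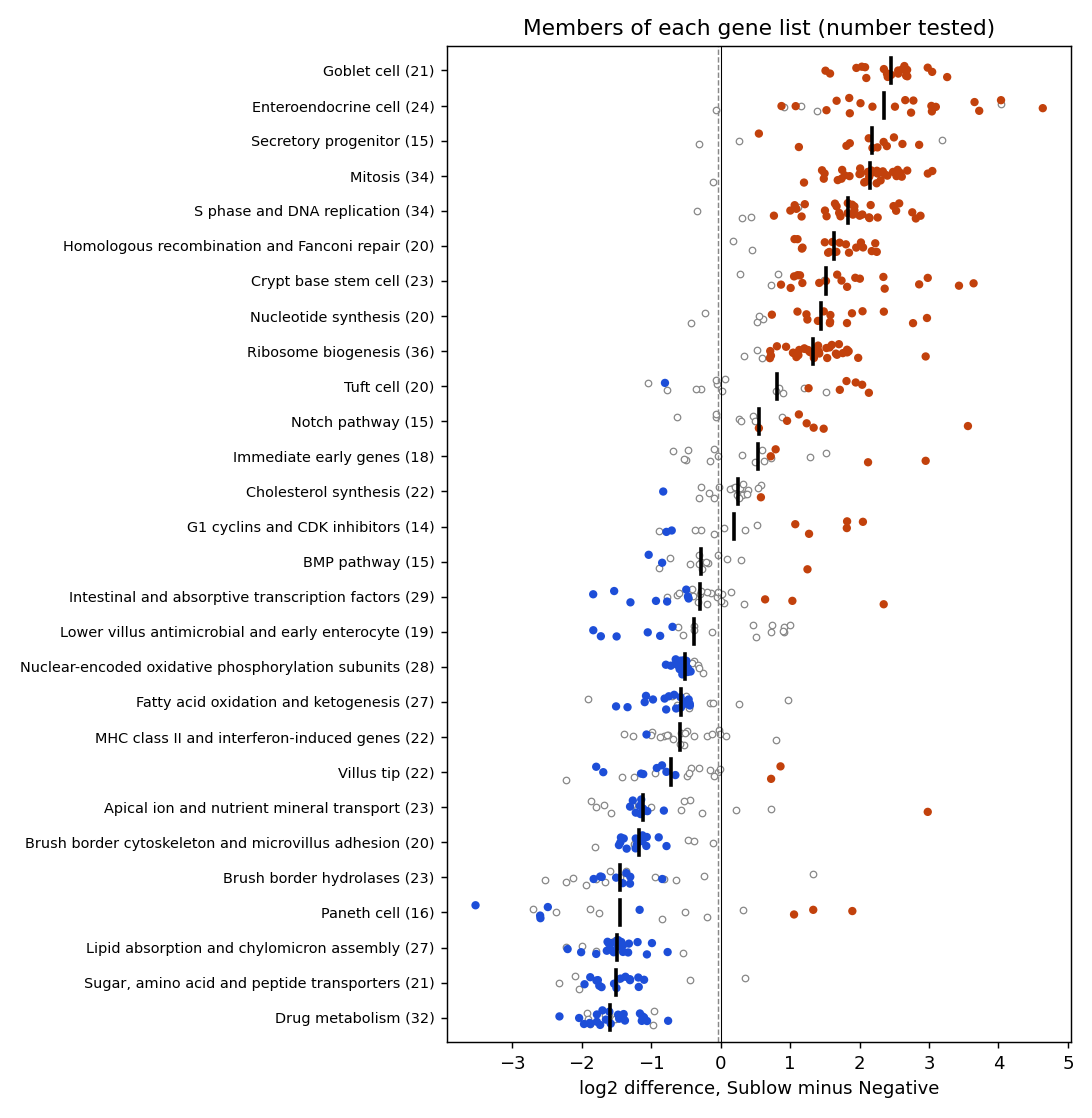
Log2 differences (Sublow minus Negative, horizontal axis) of every tested member of 28 gene lists, 1 row a list, with called genes filled in red (higher) or blue (lower), the list's median as a bar and the median of all tested genes as a dashed line. Proliferation, stem, goblet and enteroendocrine lists lie to the right of 0, absorptive lists and most Paneth genes to the left.

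Position along the villus was followed with separate lists. Of 19 lower villus genes 6 fell and none rose (median -0.38): Reg3b, an antimicrobial lectin, fell to 15066, 11179 and 11698 in Sublow, against 23217, 21073 and 24602 in Negative libraries (log2 difference -0.87 ± 0.17, adjusted p = 0.00545), while Reg3g was at 15446, 10939 and 11383 in Sublow and 17367, 17574 and 19668 in Negative libraries and was not called (log2 difference -0.55 ± 0.25, adjusted p = 0.12). Of 22 villus tip genes above the filter 8 fell and 2 rose (median -0.72). Krt20, a keratin of mature cells, fell to 16239, 26451 and 9714 in Sublow, against 33003, 43925 and 31179 in Negative libraries (log2 difference -1.15 ± 0.36, adjusted p = 0.0352), and Egfr, the growth factor receptor, rose by 0.73. The villus tip falls numbered 1 without Negative B, 2 without Sublow C, 3 without Sublow A, 5 without Negative A or C and 2 with equal totals; those of the lower villus were 2 without Sublow A, Sublow C or Negative B, 3 without Negative C, 2 with equal totals and 1 with quantile scaling. With quantile scaling the lower villus median turned to 0.07, with 11 of 19 genes above 0, in place of 8. Without Sublow B 4 lower villus genes were called higher.

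Of 29 intestinal and absorptive transcription factors 3 rose, 8 fell and 18 were not called (median -0.30, and -0.01 with equal totals). Myb, a proliferation factor of the crypt, was at 3276, 2148 and 5281 in Sublow and 1166, 308 and 782 in Negative libraries (log2 difference 2.35 ± 0.41, adjusted p = 0.00383), and Cdx1 rose by 0.64. Hnf4g, a nuclear receptor of enterocytes, fell to 5193, 7545 and 3069 in Sublow, against 11028, 12879 and 12596 in Negative libraries (log2 difference -1.30 ± 0.27, adjusted p = 0.0077), and the factors Maf and Nr1i3 fell with log2 differences of -1.53 and -1.83. Hnf4a, its paralog, was at 9601, 9920.1 and 10979 in Sublow and 9656, 10820.1 and 9520.0 in Negative libraries and was not called (log2 difference 0.02 ± 0.12, adjusted p = 0.903), nor was Cdx2, which specifies intestine, at 1625, 2239 and 1791 in Sublow and 1919, 2677 and 1879 in Negative libraries (log2 difference -0.19 ± 0.16, adjusted p = 0.393). The 8 falls were 1 without Negative B, 2 without Sublow A or C, 3 with equal totals and 5 without Negative C, Low A or High A. In the BMP pathway, active toward the villus, 2 of 15 fell and 1 rose, against 12.7% and 15.1% of all genes tested, so the falls were near the general share. The inhibitory Smad7 fell to 1270.2, 1528 and 757 in Sublow, against 2017, 2747 and 2287 in Negative libraries (log2 difference -1.04 ± 0.23, adjusted p = 0.00867), Smad6 fell with a log2 difference of -0.84, and Bmp7 rose by 1.25. The BMP target Id1 was at 690.2, 1016 and 991 in Sublow and 935, 1346 and 803 in Negative libraries and was not called (log2 difference -0.18 ± 0.21, adjusted p = 0.556). Without Sublow A or Negative B 1 of the BMP falls was called, and without Negative A 3.

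In 3 further lists the counts of calls were small and depended on the fit. Cholesterol synthesis had 1 rise and 1 fall of 22 (median 0.26), with Hmgcs1, an early enzyme of the pathway, at 2862, 2465 and 2344 in Sublow and 2133, 1755 and 1951 in Negative libraries (log2 difference 0.39 ± 0.17, adjusted p = 0.0998). MHC class II and interferon-induced genes had 1 fall of 22, Irf7, with 800.5, 1069.9 and 387 in Sublow and 1656, 2008 and 924 in Negative libraries (log2 difference -1.07 ± 0.35, adjusted p = 0.0394). Immediate early genes, which respond within minutes to stimulation and to cell dissociation, had 4 rises of 18 (median 0.54). With library weights in the fit, 1 was called higher and 4 lower (median -0.01). Egr1 was at 4239, 7118 and 9277 in Sublow and 3031, 4394 and 4044 in Negative libraries (log2 difference 0.79 ± 0.25, adjusted p = 0.0376) and Fos at 7925, 14256 and 15046 in Sublow and 10401, 15944 and 12658 in Negative libraries (log2 difference -0.10 ± 0.26, adjusted p = 0.797), and Sublow A held the least of Egr1 among the Sublow libraries. Myc, counted above, is 1 of the 4. The rises numbered 7 without Sublow A, 2 without Sublow B or Negative C, and 1 without Sublow C, Negative A or Negative B; 9 interferon and MHC genes were called lower without Sublow B and 5 without Negative C, and 7 cholesterol genes were called higher with equal totals. Sorting time was not given, and its part was not tested.

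The Sublow libraries were the most varied of the 4 populations. The median within-group standard deviation of log2 values was 0.374 in Sublow and 0.260 in Negative libraries, with 0.223 in Low and 0.196 in High, and 64.0% of tested genes had a larger spread in Sublow than in Negative. The standard errors and adjusted p-values of the main limma fit rest on a spread pooled over all 4 populations. They can therefore be too small for genes that varied more in Sublow or Negative than in Low and High. Sublow B lay nearest to the Negative libraries: its median absolute log2 gap to Negative A was 0.264, less than its gap of 0.316 to Sublow A and of 0.553 to Sublow C. Of the 2500 genes that rose, Sublow B was the closest to the Negative mean for 2043, A for 390 and C for 67. Of the 2097 that fell, B was closest for 1874, A for 139 and C for 84. The median distance from the Negative mean over the risen genes was 1.26 in Sublow A, 0.89 in B and 1.76 in C, and over the fallen genes -0.81 in A, -0.40 in B and -1.13 in C. In 22 of the 28 lists Sublow B was the library nearest Negative, and in 23 Sublow C was the farthest. The exceptions include goblet genes, where A was nearest, and Paneth genes, where C was nearest and B farthest. Leaving out Sublow B raised the calls to 3242 higher and 2997 lower, while leaving out Sublow C gave 1469 and 717, leaving out Sublow A 1824 and 939, and leaving out Negative B 1404 and 325.

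**Figure D4:**
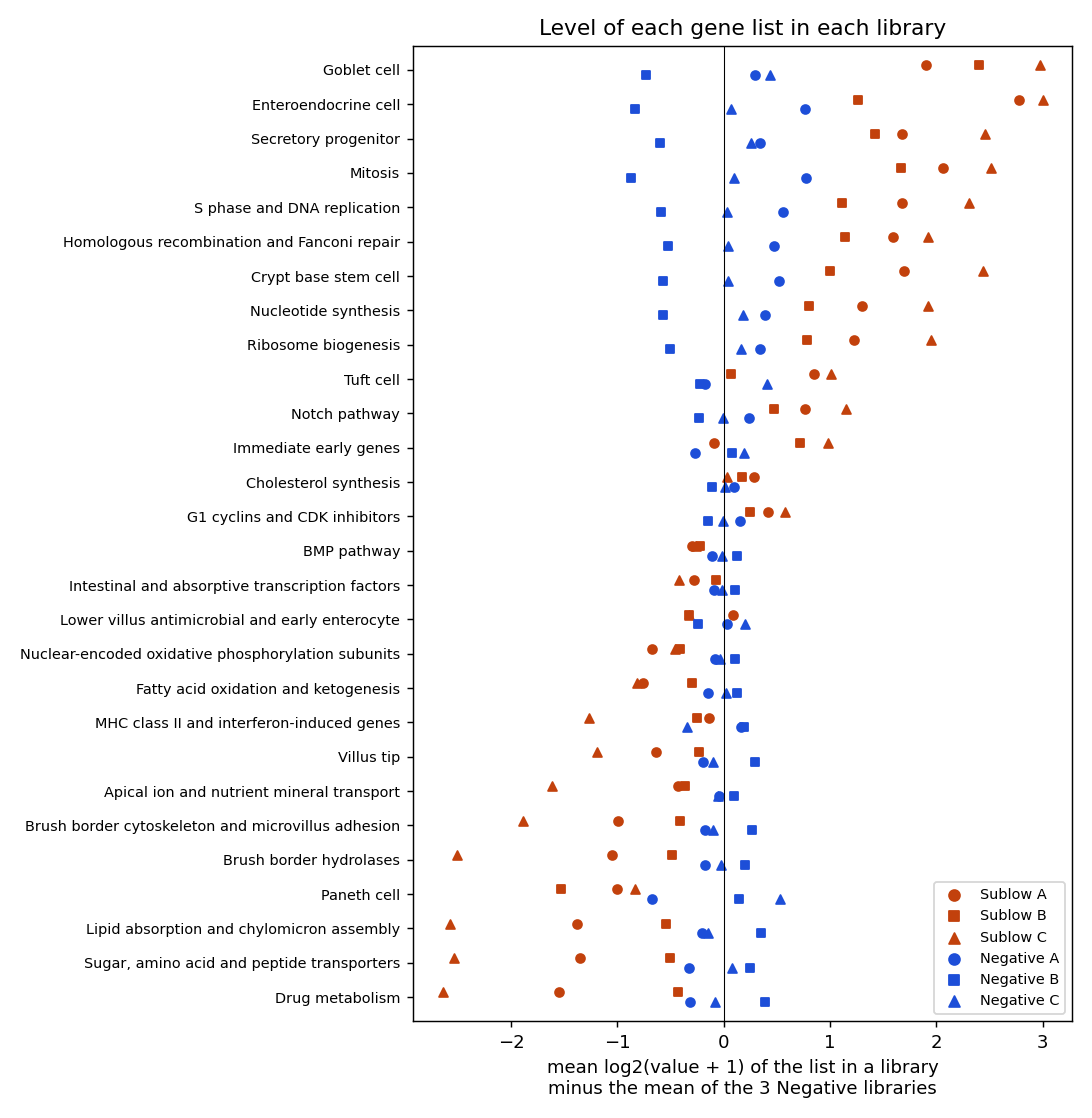
Mean log2(value + 1) of each gene list in each of the 3 Sublow and 3 Negative libraries, minus the mean of the 3 Negative libraries (horizontal axis), 1 row a list. Sublow B is the Sublow library nearest Negative in 22 of the 28 lists, and Sublow C the farthest in 23.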

How the data were processed

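The authors' deposited table holds normalised counts, per its title, as signal values per gene symbol and library. Every value was a whole multiple of its library's smallest step (100% within 0.01), so whole reads were recovered by division. The sources used here do not give the aligner, counter, genome build or annotation. Groups follow the population labels. The main test was limma 3.58.1 with a trend on log2(value + 1) in R 4.3.3, 1 fit of 12 libraries with 4 populations, over the 16577 genes that reached a value of 10 in 3 or more libraries. The fold changes are on that scale and understate changes of low genes. edgeR 4.0.16 and DESeq2 1.42.0 on the recovered reads, other pseudocounts, filters and scalings, and fits without 1 library were alternatives, and the pipeline was tested on simulated data. 2416 genes at 0 in all libraries were left out by the filter. The comparison and the gene lists were chosen with earlier results of these data known. Genes named are Sox9, the 12 largest rises and falls averaging 100 or more without overlap, and, for each list, the first members and the called members with the largest changes. The 12 rises and falls pass over predicted genes, RIKEN clones, and identifiers that begin with AC, AI, AL, AU, AW, BC, LOC or ENSMUS. Ribosomal protein symbols (Rpl or Rps and digits), microRNA genes and small structural RNAs are passed over too. Not every gene meeting the rule is given, and Pole, Foxa3, Rep15, Wnt3, Itln1, Sst, Pttg1, Cd8a, Cd68, Cd14, Lyz2 and Gm14851, besides those marked in the text, were chosen after their values were seen. A list is described by counts and median, without a test. Promoter windows are from RefSeq on GRCm38.p6. Some genes of the lists are counted but not reported singly here.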

Additional observations from a re-analysis of the deposited data

How the results depend on the processing

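The counts of calls, 2500 higher and 2097 lower in Sublow, depended most on which libraries set the spread. Leaving out each library in turn gave 1404 to 3242 genes higher and 325 to 2997 lower. The 6 libraries alone gave 41 and 5. Among listed genes that fit called 4 goblet, 2 secretory progenitor and 1 Paneth gene, and none of any other list. Libraries scaled to the same total gave 3829 higher and 610 lower, quantile scaling 1120 lower, library weights 3603 lower and edgeR 1309 lower. An adjusted p below 0.01 left 1131 higher and 236 lower, and a 2-fold minimum left 663 lower. In the other alternatives both counts stayed within 1.5 times. With the letters A, B and C as a replicate block the counts were 3072 and 2958, and in the 6 libraries alone with that block, an alternative added after seeing the data, 1863 and 1830. The letters were not taken as pairs: deviations of same-letter Sublow and Negative libraries correlated at 0.0973 to 0.311, not all above 0.1. The value below 0.1 was that of replicate A, and it lay close to that limit. Among the Sublow libraries, Negative A correlated at 0.105 with C and at 0.0973 with A. With Low A, of its own letter, it correlated at 0.117. Sublow and Negative libraries of different letters correlated at -0.265 to 0.105, mostly below the same-letter values. Whether a letter stands for a shared source was not tested. Of the 18 same-letter pairs among the 4 populations 13 were above 0.1, and all were positive, between 0.0521 and 0.341. Most pairs of different letters were negative. Libraries of the same letter thus deviated in part together, and the main fit does not remove that shared part. Under the block none of the 131 called genes named in the text lost its call, and 8 of the 16 not called gained it; interferon and MHC genes went to 12 of 22 lower (9 in the 6 libraries alone with the block), and immediate early genes to 10 higher and 3 lower of 18 (8 and 2), and brush border hydrolases to 19 lower. The cause of these shifts was not tested.

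No called gene named in the text changed direction under any alternative; 20 of the 131 were called with the 6 libraries alone and 86 without Negative B. Over all genes, 39 higher and 3 lower calls held in all 25 alternatives. Among genes not called, the log2 difference changed sign for Cdx2 (0.10 with equal totals, 0.0168 with quantile scaling), Epcam (0.16 with quantile scaling), Fos (0.19 with equal totals, 0.32 with quantile scaling, -0.27 to 0.19 without 1 library), Hnf4a (-0.0258 with library weights, -0.0326 to 0.0822 without 1 library), Id1 (0.11 with equal totals, -0.34 to 0.0320 without 1 library) and Pttg1 (0.18 with equal totals, -0.31 to 0.0319 without 1 library). At these depths, genes near the floor of 3 reads, such as Gvin1 in Negative B and C, have no reliable fold.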

Other observations

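Outside the lists, the 41 genes that the 6 libraries alone called higher in Sublow held several membrane and signalling genes, picked here after their values were seen. Atp2a3, a calcium pump of the endoplasmic reticulum, was at 3881, 3456 and 5260.1 in Sublow and 881, 421 and 898 in Negative libraries (log2 difference 2.57 ± 0.27, adjusted p = 0.00069, limma with 12 libraries). Slc12a8, a solute carrier, was at 1919, 2289.7 and 2747 in Sublow and 751, 517 and 640.1 in Negative libraries (log2 difference 1.87 ± 0.24, adjusted p = 0.00112). Kcnk6, a potassium channel, was at 689, 816 and 1047 in Sublow and 221, 172 and 236 in Negative libraries (log2 difference 2.01 ± 0.25, adjusted p = 0.00104). In all 3 genes the Sublow libraries lay close together beside the gap to Negative, which the call that picked them favours. Rap1gap, which switches off the GTPase Rap1, was at 1320.2, 1422 and 1979 in Sublow and 322, 185 and 381 in Negative libraries (log2 difference 2.45 ± 0.29, adjusted p = 0.000892). Of the 5 genes called lower there, 3 carried the Defa symbol, Defa31, Defa23 and Defa30; the others were AY761184 and a predicted gene.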
